A study of Homo sapiens with 8 samples.

Results

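The genes described here are the 7 IGF-binding proteins *IGFBP1* to *IGFBP7* and the receptors *IGF1R*, *IGF2R* and *INSR*, 10 of the 33616 genes that had a probe set with a single gene symbol. Where a gene has several such probe sets, the one used was selected on its mean signal over the 8 arrays. Each of the 10 had a single one, so that signal decided nothing for them. The genes were listed with earlier results of these data known, *IGFBP6* being named by the study among its differentially expressed genes.

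BCPAP is a cell line from a papillary thyroid carcinoma. Cultures received a pool of non-specific siRNA (si*NS*, 4 arrays) or a pool against *EPB41L4A* (si*EPB41L4A*, 4 arrays), and RNA was taken 72 h later for Clariom D Human arrays. The labels give a dose of 40 µM for both pools. The treatment field of the si*NS* samples names *LRRC34* siRNA or si*NS*, whereas their titles and source names give si*NS* alone. The 4 replicates of a group came from experiments at separate times. With 1 pool in each group and 1 cell line, off-target effects of a pool and effects of losing *EPB41L4A* cannot be told apart. Whether the arrays of both groups were made together is not given in the sources used here.

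IGF-binding proteins are secreted and hold IGF1 and IGF2 outside the cell, where they keep the ligands from the receptors, prolong their life or hand them on after being cleaved by proteases. *IGF1R* and *INSR* encode receptor tyrosine kinases that signal through IRS adaptors to PI3K and AKT. *IGF2R*, the cation-independent mannose 6-phosphate receptor, takes up and degrades IGF2 and sorts lysosomal enzymes. In thyroid follicular cells, IGF1 acts together with thyrotropin on growth.

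The values are log2 signals after the robust multiarray average (RMA), and levels of different probe sets are not compared. The targeted gene, *EPB41L4A*, averaged 9.53 ± 0.26 in the si*NS* arrays and 6.33 ± 0.70 in the knockdown arrays (SD, n = 4 each). Array medians were 3.72 to 3.84, and the negative controls averaged 4.05 to 4.29 in the single arrays. Of the thyroid markers, *PAX8*, *NKX2-1*, *FOXE1* and *HHEX* lay above these controls in each array. The other 5 measured (*TG*, *TSHR*, *SLC5A5*, *SLC26A4* and *DIO1*) did not, so the transcription factors of the lineage were present and the products of the mature thyroid cell were not detected in all arrays. Of 5 leukocyte markers only *CD68* lay above the controls in each array, and of 5 endothelial markers only *KDR*. Of 6 fibroblast markers, *COL1A1*, *COL1A2*, *DCN* and *LUM* did. Of 6 epithelial markers, the keratins *KRT7*, *KRT8*, *KRT18* and *KRT19* and the adhesion molecule *EPCAM* did, and *CDH1* did not. *KRT7* and *EPCAM* fell after the knockdown (log2 changes -1.42 and -2.43, adjusted p = 0.00645 and 0.00683 from limma), and the epithelial list averaged 10.01 to 10.50 over the si*NS* arrays and 9.22 to 9.80 over the si*EPB41L4A* arrays. *KRT8* and *KRT18* had log2 changes of -1.02 and -0.55 and did not pass (adjusted p = 0.109 and 0.566 from limma). *KRT19* (0.15) did not pass either, and *CDH1* (0.09) lay below the filter. The part of these markers in the changes of the binding proteins was not tested. The mean of the fibroblast list was 5.79 to 6.24 over the si*NS* arrays and 5.64 to 6.23 over the si*EPB41L4A* arrays. In RNA from whole cultures, fewer cells with a transcript and less transcript per cell cannot be told apart.

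*IGFBP6* fell and *IGFBP7* rose after *EPB41L4A* knockdown, and none of the 3 receptors passed the test (1 at an unadjusted p under 0.05 in limma). Without variance moderation, neither *IGFBP6* nor *IGFBP7* nor a receptor passed after adjustment, *IGFBP6* having an adjusted p of 0.0711 and *IGFBP7* of 0.0660. Of the 10 genes, 8 exceeded the median of the array in 4 or more arrays and were tested with limma, the p-values being adjusted over 66831 probe sets by Benjamini-Hochberg. An adjusted p under 0.05 was reached by 2 of the 8. Among all tested probe sets it was reached by 2.61% (1.23% higher and 1.38% lower), and by 5.51% of the 22465 genes whose own probe set was tested (2.55% higher and 2.96% lower). The split of all calls was 824 higher and 923 lower, and 1041 and 759 after quantile normalization again. *IGFBP1* and *IGFBP2* stayed below the filter.

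*IGFBP6* encodes the binding protein that prefers IGF2 over IGF1. Its log2 signal was 10.76, 10.44, 10.57 and 8.84 in si*NS* replicates 1 to 4, and 6.85, 6.49, 7.39 and 6.01 in si*EPB41L4A* replicates 1 to 4. The groups did not overlap, and the lowest si*NS* array still lay 1.45 above the highest si*EPB41L4A* array. The log2 change was -3.47 (standard error 0.41, 95% interval -4.37 to -2.56, adjusted p = 0.00117 from limma), an 11.1-fold lower deposited value. The exact two-sided permutation test gave p = 0.0286, the smallest that 4 arrays against 4 allow.

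*IGFBP7* encodes a secreted protein of the vessel wall and matrix that binds IGFs only weakly. Its log2 signal was 12.62, 13.03, 13.34 and 12.41 in si*NS* replicates 1 to 4, and 15.17, 15.10, 14.42 and 14.49 in si*EPB41L4A* replicates 1 to 4. Each si*EPB41L4A* array lay above each si*NS* array, with 1.08 between the nearest arrays. The log2 change was 1.95 (standard error 0.27, 95% interval 1.35 to 2.54, adjusted p = 0.00314 from limma), a 3.85-fold higher deposited value. The transcript *IGFBP7-AS1*, antisense to it, had means of 2.97 and 2.90, below the negative controls. *TIE1*, an endothelial marker, rose as well (log2 change 1.21, adjusted p = 0.0173 from limma). It was at 3.78 to 4.15 over the control arrays and at 4.82 to 5.55 over the knockdown arrays. No si*NS* array exceeded the negative controls for *TIE1*, so the size of its rise cannot be read from the change. When single arrays were left out, *TIE1* stayed called in 6 of 8 fits (adjusted p up to 0.0657 from limma). The mean of the 5 endothelial markers was 3.90 to 4.37 over the si*NS* arrays and 4.45 to 4.55 over the si*EPB41L4A* arrays. Of the other endothelial markers, *KDR*, *CDH5* and *VWF* did not pass (log2 changes -0.13, -0.03 and 0.29), and *PECAM1* (0.23) lay below the filter. The part of these markers in the rise of *IGFBP7* was not tested.

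**Figure D1:**
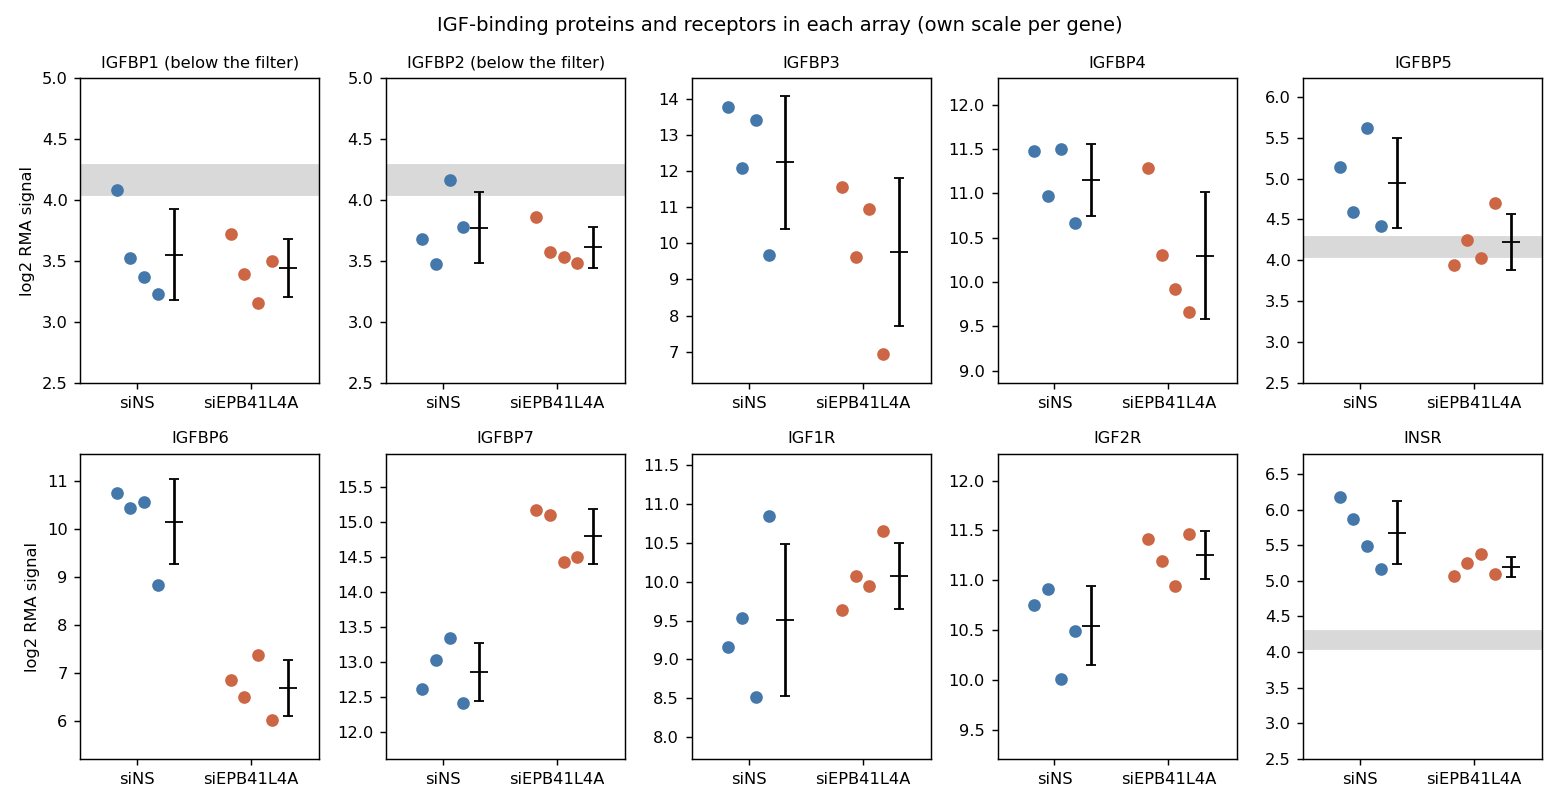
Log2 RMA signal of the 10 genes in each array (vertical axes, own scale per gene) for si*NS* (blue) and si*EPB41L4A* (orange), replicates 1 to 4 from left to right; bars give the mean ± SD and the grey band the negative control means of the arrays where it falls within the axis. The groups stand apart for *IGFBP6*, *IGFBP7* and, by 0.03, *IGF2R*, while *IGFBP3* spans over 4 units in each group.

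*IGFBP3*, the main carrier of IGFs in serum, had a lower mean after the knockdown with a wide spread. Its log2 signal was 13.77, 12.08, 13.43 and 9.68 in si*NS* replicates 1 to 4, and 11.56, 9.63, 10.94 and 6.92 in si*EPB41L4A* replicates 1 to 4. The groups overlapped, and in both of them the replicates ran in the order 1, 3, 2, 4 from the highest to the lowest. The log2 change of -2.47 had a standard error of 0.99 and a 95% interval of -4.62 to -0.32 and did not pass the test (adjusted p = 0.271 from limma; exact permutation p = 0.114). Its spread within the groups (pooled SD 1.96) was wider than that of 99.9% of the tested probe sets. The log2 change was -1.53 without si*EPB41L4A* replicate 4 and -3.32 without si*NS* replicate 4. With the replicate number as a block, *IGFBP3* passed (standard error 0.20, adjusted p = 0.000614 from limma). Between arrays of the same number its differences were -2.76 to -2.21. The design text does not tie a number to a time in both groups.

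*IGFBP4*, a binding protein known to hold back IGF action until PAPPA cleaves it, was at 11.47, 10.97, 11.49 and 10.67 in si*NS* replicates 1 to 4, and at 11.29, 10.31, 9.92 and 9.66 in si*EPB41L4A* replicates 1 to 4. Only si*EPB41L4A* replicate 1 reached into the range of the si*NS* arrays. The log2 change was -0.86 (standard error 0.34, 95% interval -1.60 to -0.11, adjusted p = 0.270 from limma). *IGFBP5*, which also binds to the extracellular matrix, was at 5.14, 4.60, 5.62 and 4.42 with si*NS* and at 3.94, 4.24, 4.03 and 4.70 with si*EPB41L4A*. It lay above the negative controls in all 4 si*NS* arrays and in 2 of the si*EPB41L4A* arrays, and the groups overlapped (log2 change -0.72, standard error 0.29, adjusted p = 0.282 from limma).

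*IGFBP1*, the binding protein of liver that insulin represses, was at 3.23 to 4.08 with si*NS* and 3.16 to 3.73 with si*EPB41L4A*, below the negative controls in each array. *IGFBP2* was at 3.48 to 4.16 and 3.49 to 3.86 and exceeded the controls in 1 si*NS* array. Neither level can be told from background on these arrays. At an unadjusted p under 0.05, 6 of the 8 tested genes passed (13.9% of all tested probe sets and 22.2% of all tested genes did): all 5 tested binding proteins and *IGF2R*. Without variance moderation 3 of the 8 did, *IGFBP6*, *IGFBP7* and *IGF2R*, and so did 8286 of the 66831 tested probe sets. Among the binding proteins 4 of 5 changes were negative, and among all 22465 tested genes 12495 were. Of these 4, only *IGFBP6* passed after adjustment. The median of the 5 changes was -0.86 on the log2 scale, which is the value of *IGFBP4*, beside -0.06 over all tested genes.

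**Figure D2:**
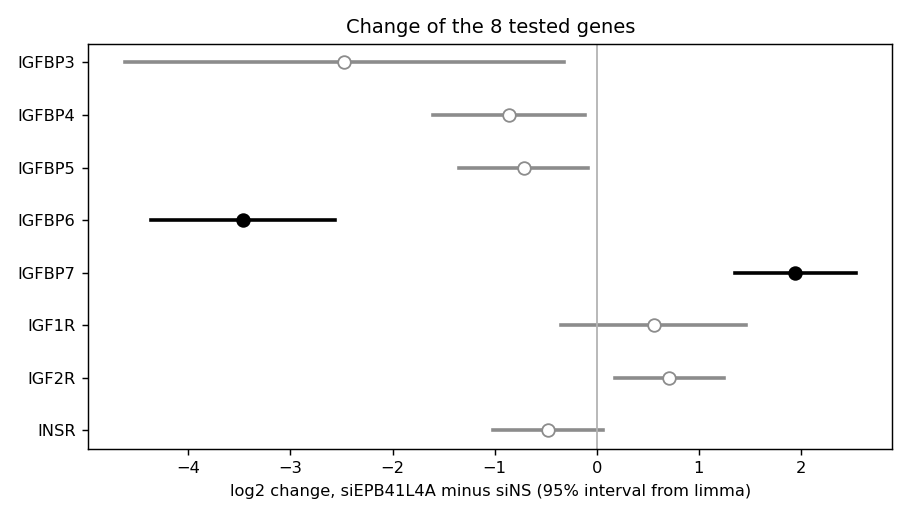
Log2 change, si*EPB41L4A* minus si*NS*, of the 8 tested genes (horizontal axis) with its 95% interval from limma; filled black points passed an adjusted p under 0.05 and open grey points did not. *IGFBP6* (-3.47) and *IGFBP7* (1.95) lie on opposite sides of 0, and *IGFBP3* has the widest interval of the 8 (-4.62 to -0.32).

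*IGF2R* was at 10.75, 10.92, 10.01 and 10.50 in si*NS* replicates 1 to 4, and at 11.41, 11.19, 10.95 and 11.47 in si*EPB41L4A* replicates 1 to 4. The groups did not overlap but came within 0.03 of each other. The log2 change was 0.71 (standard error 0.25, 95% interval 0.18 to 1.25) and did not pass the adjusted test (adjusted p = 0.183 from limma; exact permutation p = 0.0286). No overlap between groups was seen for 3 of the 8 tested genes (*IGFBP6*, *IGFBP7* and *IGF2R*) and for 8.61% of all tested probe sets (3.75% higher and 4.85% lower). That share was not computed over the tested genes alone, which passed the adjusted test more often than all probe sets did (5.51% against 2.61%).

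*IGF1R* was at 9.16, 9.53, 8.52 and 10.84 with si*NS* and at 9.63, 10.07, 9.94 and 10.64 with si*EPB41L4A*, again in replicates 1 to 4. The highest and the lowest of the 8 arrays were both si*NS* arrays. Its log2 change was 0.56 (standard error 0.42, 95% interval -0.35 to 1.47, adjusted p = 0.632 from limma). Leaving out si*NS* replicate 4 moved it to 1.0 and leaving out si*NS* replicate 3 to 0.23. It was 0.37 when si*EPB41L4A* replicate 4 was left out. *INSR* was at 6.18, 5.87, 5.48 and 5.16 with si*NS* and at 5.07, 5.25, 5.37 and 5.09 with si*EPB41L4A*, and the groups overlapped. Its log2 change was -0.48 (standard error 0.25, 95% interval -1.01 to 0.06, adjusted p = 0.427 from limma), and -0.31 without si*NS* replicate 1. The intervals of both genes include 0, and that of *IGF1R* also reaches changes larger than that measured for *IGF2R*.

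Some of the spread within groups went with the replicate number. *IGFBP3*, *IGFBP4* and *IGFBP6* were lowest in replicate 4 of both groups, and *IGF1R* was highest there. Among all tested probe sets, 9.91% were lowest and 11.4% highest in replicate 4 of both groups. The same full order of the 4 numbers in both groups, as for *IGFBP3*, was seen for 7.09%. *PAPPA*, the metalloproteinase that cleaves *IGFBP4* protein, was at 11.98, 11.24, 11.00 and 8.44 with si*NS* and at 12.57, 11.60, 11.86 and 8.94 with si*EPB41L4A* (adjusted p = 0.833 from limma). *MMP3*, a stromelysin that can cleave IGF-binding proteins, was at 10.38, 9.10, 9.57 and 5.99 and at 14.55, 12.19, 13.23 and 6.56 (adjusted p = 0.402 from limma). Both genes were lowest in replicate 4 and highest in replicate 1 of each group. The design text gives separate times for the 4 replicates but does not tie a number to a time in both groups.

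**Figure D3:**
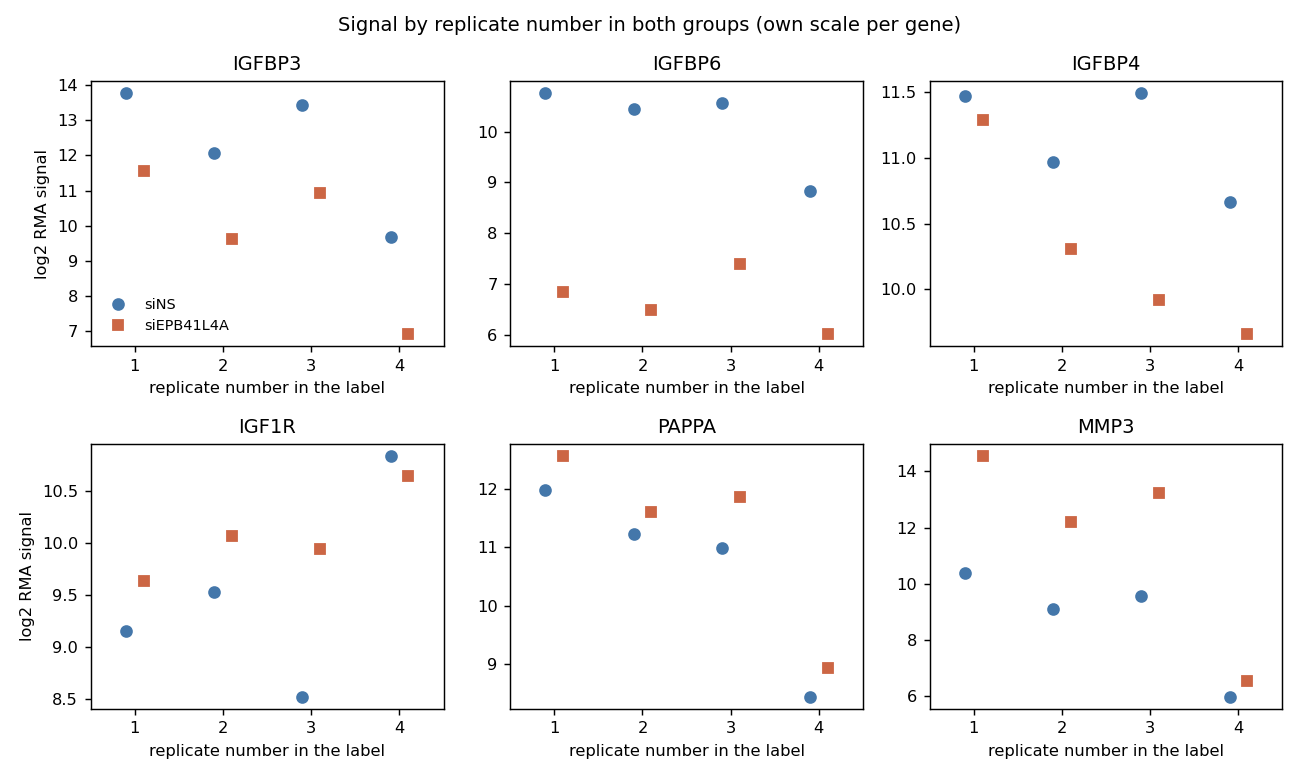
Log2 RMA signal (vertical axes, own scale per gene) of *IGFBP3*, *IGFBP6*, *IGFBP4*, *IGF1R*, *PAPPA* and *MMP3* against the replicate number of the label, for si*NS* (circles) and si*EPB41L4A* (squares). Replicate 4 is the lowest of both groups in 5 of the panels and the highest for *IGF1R*.

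Promoter sequence was available from RefSeq (GRCh38.p14) for 8 of the 10 genes, not for *IGFBP1* and *IGFBP7*. The 200 bases before the start site are shown for *IGFBP6*, the gene that fell, for the other 3 binding proteins with a negative change in the test, and for *IGF2R* as the receptor whose groups did not overlap. The windows are chr12:53097467-53097666 (plus strand), chr7:45921273-45921472 (minus strand), chr17:40443250-40443449 (plus strand), chr2:216695550-216695749 (minus strand) and chr6:159968882-159969081 (plus strand), in the order printed. Capitals mark a TATA box (TATAAA or TATATA), a GC box (GGGCGG), a FOXO site (GTAAACA) or an E-box (CACGTG), each searched on both strands.
IGFBP6: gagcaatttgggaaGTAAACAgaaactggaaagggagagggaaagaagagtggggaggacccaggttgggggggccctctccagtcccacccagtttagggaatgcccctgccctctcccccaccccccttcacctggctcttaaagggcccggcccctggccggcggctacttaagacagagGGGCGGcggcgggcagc
IGFBP3: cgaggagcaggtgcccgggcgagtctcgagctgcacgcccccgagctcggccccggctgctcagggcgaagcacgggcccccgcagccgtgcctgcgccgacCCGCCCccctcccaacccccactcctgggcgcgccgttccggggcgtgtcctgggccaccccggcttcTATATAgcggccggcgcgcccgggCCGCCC
IGFBP4: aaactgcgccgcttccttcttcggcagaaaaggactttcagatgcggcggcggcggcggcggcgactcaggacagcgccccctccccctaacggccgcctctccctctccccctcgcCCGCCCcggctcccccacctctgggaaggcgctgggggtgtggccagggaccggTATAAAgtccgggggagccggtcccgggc
IGFBP5: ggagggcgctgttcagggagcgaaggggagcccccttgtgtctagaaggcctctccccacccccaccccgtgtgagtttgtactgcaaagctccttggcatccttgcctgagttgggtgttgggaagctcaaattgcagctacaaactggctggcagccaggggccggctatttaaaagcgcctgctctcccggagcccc
IGF2R: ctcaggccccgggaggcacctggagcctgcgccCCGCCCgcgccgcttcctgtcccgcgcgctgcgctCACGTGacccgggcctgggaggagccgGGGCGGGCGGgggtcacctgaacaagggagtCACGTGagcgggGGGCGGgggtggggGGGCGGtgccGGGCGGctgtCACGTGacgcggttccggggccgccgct
A TATA box lay 30 bases before the start of *IGFBP3* and 29 before that of *IGFBP4*, and its letters were not found in the searched window of the other 6 genes. It was present in the 250 bases before the start in 12.8% of 35116 RefSeq promoters. The FOXO site of *IGFBP6*, 186 bases before the start, was the only one among the 8 genes and occurs in 2.98% of promoters. *IGF2R* held 3 E-boxes, the motif of basic helix-loop-helix factors, and 6 GC boxes, of which the pair at 105 and 101 bases before the start overlaps. An E-box is found in 6.34% and a GC box in 42.6% of promoters. These are matches of letters, and binding was not measured.

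Of the ligands, *IGF1* averaged 5.20 ± 0.27 in the control and 5.39 ± 0.32 in the knockdown arrays (SD, n = 4 each; log2 change 0.18, adjusted p = 0.816 from limma). *IGF2* lay below the filter and below the negative controls (3.35 ± 0.16 and 3.15 ± 0.28). *INS* was not analysed here. Beyond the 10 genes, 107 genes around IGF signalling had been listed, again with earlier results known, and 89 of them were tested. Of these, 8 rose and 6 fell, with a median log2 change of 0.10, beside -0.06 over all tested genes. The share called was 15.7%, beside 5.51% of all tested genes.

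Of the 14 genes that moved, 8 encode secreted or cell-surface proteins of the first lists, which hold relatives and proteases of the binding proteins. Of 18 tested proteases of IGF-binding proteins and inhibitors of these proteases, 4 rose and 2 fell. *STC1*, a secreted inhibitor of PAPPA, went from 15.83 ± 0.75 to 18.92 ± 0.34, near the highest values of the arrays (19.79 to 19.92), where a further rise may be compressed (adjusted p = 0.000689 from limma). *ADAM9*, a membrane metalloproteinase, rose by 1.83 on the log2 scale (adjusted p = 0.000706). *ADAM12*, which cleaves IGFBP3 and IGFBP5, and *SERPINE2*, a protease inhibitor, rose by 1.68 and 1.75. When single arrays were left out, *ADAM12* stayed called in 3 of 8 fits (adjusted p up to 0.0654) and *SERPINE2* in 2 (up to 0.119). The gelatinase *MMP2* fell from 13.11 ± 0.28 to 10.10 ± 0.77 (adjusted p = 0.000788). For *MMP7*, matrilysin, the knockdown arrays did not exceed the negative controls on average, and its fall of at least 1.29 is a bound (adjusted p = 0.00921). *MMP1* sat at 19.86 and 19.89, at the upper end of the arrays, where no change can be read.

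Of 7 tested proteins related to IGF-binding proteins by a shared domain or an older name, *ESM1*, the proteoglycan endocan, rose from 6.80 ± 0.17 to 9.75 ± 0.90 (log2 change 2.95, standard error 0.37, adjusted p = 0.00170 from limma). *CCN3*, a matricellular protein, fell from 12.72 ± 0.55 to 10.10 ± 0.95 (log2 change -2.62, standard error 0.42, adjusted p = 0.00720). The remaining 5 did not pass the test, among them *CCN1* and *CCN2* (log2 changes 0.23 and 1.62, adjusted p = 0.929 and 0.217 from limma). With the replicate number as a block, *CCN2* passed (adjusted p = 0.0313 from limma).

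**Figure D4:**
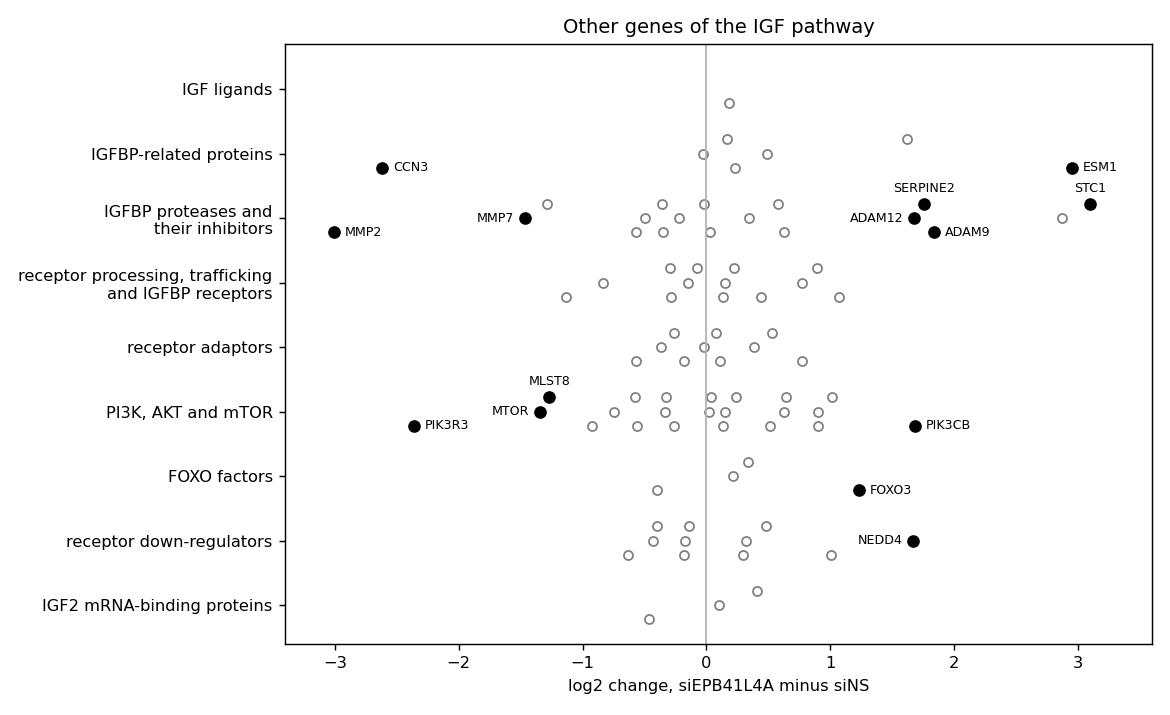
Log2 change, si*EPB41L4A* minus si*NS* (horizontal axis), of the 89 tested genes around IGF signalling by list (rows; points are spread vertically for legibility); filled and named points passed an adjusted p under 0.05 from limma. The 8 genes that rose and the 6 that fell lie in 5 of the 9 lists.

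Inside the cell, no receptor adaptor passed (0 of 10 tested with limma, 2 at an unadjusted p under 0.05, and 0 after adjustment without variance moderation), *IRS1* and *IRS2* having log2 changes of 0.11 and 0.38. The same held for the 13 tested genes of receptor processing and trafficking (6 at an unadjusted p under 0.05, and 0 after adjustment without variance moderation), to which *FURIN*, the protease that matures IGF1R and INSR, and *M6PR*, the smaller mannose 6-phosphate receptor, belong (-0.83 and 0.44). Of 22 tested genes of PI3K, AKT and mTOR, 1 rose and 3 fell. *PIK3R3*, a regulatory subunit of PI3K, fell from 10.21 ± 0.35 to 7.85 ± 0.18 (log2 change -2.36, adjusted p = 0.000421 from limma). *PIK3CB*, a catalytic subunit, rose by 1.68 (adjusted p = 0.00321), and its other 2 probe sets had changes of 0.95 and 0.70 that did not pass.

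The kinase *MTOR* fell by 1.34 and its partner *MLST8* by 1.27 (adjusted p = 0.0134 and 0.0251 from limma), *MLST8* staying called in 3 of 8 fits with an array left out (up to 0.0855). *NEDD4*, a ubiquitin ligase that takes IGF1R out of the membrane with GRB10, rose from 8.90 ± 0.28 to 10.57 ± 0.25 (adjusted p = 0.00267). It was the only called gene of 11 tested down-regulators of the receptors. *FOXO3*, a transcription factor that AKT keeps out of the nucleus, rose by 1.23 (adjusted p = 0.0369), and stayed called in 2 of 8 such fits (up to 0.109). None of the 3 mRNA-binding proteins named for *IGF2* passed after adjustment, with or without variance moderation. At an unadjusted p under 0.05 there were 0 with moderation and 1 without.

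Among 22464 other tested genes, the pattern of *IGFBP6* over the 8 arrays was most like that of *TMEM120A* (Pearson r = 0.990), *RNU6-637P* (0.989) and *MAP2* (0.987). That of *IGFBP7* was most like *GID4* (0.987), *MKX* (0.976) and *PPP2R5C* (0.976). The log2 changes of the first set were -0.88, -1.55 and -4.59 and those of the second 1.61, 1.73 and 0.91. The 8 arrays form 2 groups, and these correlations contain the group difference.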

How the data were processed

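The 8 arrays, 4 in each group, measured total RNA of BCPAP cells. The deposited values are log2 signals that the authors made with RMA in Affymetrix Expression Console, per the labels. No version or annotation release is given in the sources used here. Values above 16, the limit of a 16-bit scanner on the log2 scale, show a further scaling that is not described, and fold changes therefore describe the deposited values, which may not be proportional to RNA.

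The 2995 control rows were left out, and of the remaining 135750 probe sets 66831 exceeded the array median in 4 or more arrays. An unblocked linear model of knockdown against control was fitted to these by limma 3.58.1 (R 4.3.3) with empirical Bayes moderation. Calls needed an adjusted p under 0.05 (Benjamini-Hochberg). The script was tested on simulated data. Exact permutation tests used scipy 1.17.1. A gene was represented by its single-symbol probe set with the highest mean. Of all probe sets, 36176 had 1 symbol and 1119 several. For *MMP7*, whose knockdown mean lay under the negative controls, the change was given as a bound. For *TIE1*, whose control mean lay under them, no bound was computed.

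The genes and lists were chosen with earlier results of these data known. Named were all 10 genes, the knockdown checks, the ligands, the called genes of each list (up to 4 per direction) and the 3 genes most like each called gene. Genes named beside these, such as *PAPPA*, *MMP3*, *MMP1*, *FURIN* and *IGFBP7-AS1*, were chosen after their values were seen. The number of arrays limits the precision. The alternatives were other filters, normalizations, priors and thresholds, array weights, the same comparison without variance moderation (Student's t-test), probe set means, a replicate block and fits without arrays.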

Additional observations from a re-analysis of the deposited data

Results flagged for a closer look

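Among 62 groups of 4 arrays examined for a single array far from the others, 3 stood out by Dixon's criterion, which chance passes in about 1 of 20 groups. *IGFBP6* in si*NS* replicate 4 was at 8.84, whereas the other si*NS* arrays were at 10.44 to 10.76. *CCN3* in si*NS* replicate 3 was at 13.53, with the others at 12.41 to 12.51. *NEDD4* in si*NS* replicate 3 was at 9.31, with the others at 8.73 to 8.81.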

How the results depend on the processing

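*IGFBP6* and *IGFBP7* kept their direction in each alternative and passed the threshold in all but Student's t-test without moderation, where 0 of the genes were called (adjusted p = 0.0711 and 0.0660 by Benjamini-Hochberg). Without 1 array their adjusted p from limma was 0.000341 to 0.00721 and 0.00436 to 0.0155, and 2 genes were called in each such fit. The 1747 calls over all probe sets became 312 by the t-test, 544 at an adjusted p under 0.01, 797 to 1628 without 1 array, and 394 to 1126 without both arrays of a number. The 14 calls among the listed genes around IGF signalling became 4, 9, 10 to 13 and 7 to 13. Replicate numbers were not taken as pairs, because the design text does not tie a number to a time in both groups. Same-number correlations of deviations were 0.0746 to 0.385, the lowest being under the threshold of 0.1 used for pairing. Each array nevertheless correlated best with its own number, and correlations between different numbers were -0.227 to 0.0304. A part of the spread shared by same-numbered arrays is thus not excluded. With the replicate block the calls were 3176 and 22, all 14 among the latter, and *IGFBP3* passed (adjusted p = 0.000614 from limma). Levels near the negative controls limit *IGFBP1*, *IGFBP2* and *IGFBP5*.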
